A study of Mus musculus with 40 samples.

Results

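The genes described here are inflammatory cytokines and the enzymes of classically activated (M1) macrophages, with the inhibitors that restrain them, followed over time in subcutaneous fat of mice on different diets. They are Tnf, Il1a, Il1b, Il6, Il12b, Nos2, Ptgs2, Il1rn, Nfkbia and Tnfaip3. A probe was taken as a member when the gene symbol that the deposited table gives for it is one of these names, which found 10 genes of 29411 and 13 probes of 40628. Il1a, Ptgs2 and Il1rn have 2 probes each and the other 7 genes have 1, and a gene is shown by whichever of its probes was brighter on average.

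The mice were C57BL/6J, weaned and 3 to 4 weeks old when the diets began. The low-fat control group (LFC) had 10% of its calories from fat, and the high-fat group (HFC) had 60% from fat with more sucrose. The groups HF5, HF20 and HF75 ate the same high-fat diet with 5 µg, 20 µg or 75 µg of Kal-1, an ethnobotanical formulation. By its labels the material is stromal vascular cells of subcutaneous fat, the cells left when digested fat is spun free of adipocytes, and the title of the series calls them infiltrating macrophages. RNA was labelled with 1 dye and hybridised to Agilent arrays, 1 array for a diet and time point. LFC and HFC have 11 arrays each, at days 1, 6, 10 and 14 and at weeks 0, 3, 6, 9, 12, 15 and 18, where week 0 is counted as day 14 of the diet. HF5 has 6 arrays, from week 3 to week 18, and HF20 and HF75 have 5 each, from week 3 to week 15. Another 2 of the 40 arrays, of week 18, carry labels that conflict on the dose and were not used. Each group began with 30 animals and 5 were taken at a time point, and the design text speaks of 3 biological replicates. But the labels give 1 array per diet and time point. They do not say how many animals stand behind it or whether their RNA was pooled. The p-values therefore measure only the spread between arrays, with no replicates at a fixed diet and time point. For the pairs of diets, that is the spread of the pair differences over time points.

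Tnf and the interleukin-1 genes Il1a and Il1b encode cytokines that act early in inflammation, and their receptors switch on the transcription factor NF-kB. NF-kB and AP-1 in turn raise transcription of Il6, Il12b, Nos2 and Ptgs2 in macrophages and stromal cells, and of the inhibitors Nfkbia, Tnfaip3 and Il1rn, which close the loop. In obese fat these cytokines are known to come from macrophages as well as from stromal cells and adipocytes, and many of their transcripts are short-lived and respond within hours to tissue handling.

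A level below is the log2 intensity of a probe minus the 75th percentile of its array, so 0 is the intensity that 75% of the probes of that array do not reach. The scanner software marks whether a spot is well above background, and a value without this mark was raised to the lowest level well above background on its array if it lay below that, and kept otherwise. Of the 10 members, 8 passed that mark on 50% or more of the 38 arrays. Il12b was so on 17 of the 37 arrays with a value, and Nos2 on 6 of 38.

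Before the results, the arrays that stand apart are named. The LFC array of week 3 was dim, with a 75th percentile intensity of 7.81 and 17.2% of probes well above background. Its lowest level well above background was -0.02, so Tnf, Il1a, Il12b, Nos2, Ptgs2 and Il1rn all stand at -0.02 there and have no order against other arrays. The LFC array of day 14 had 9104 spots of 43803 marked as outliers. Ranked by level and set against each of the rest, the dim array had a median correlation of 0.523 and the day 14 array 0.437, while the remaining 36 had 0.836 to 0.947. On the LFC array of week 18, the fibroblast list (Pdgfra, Col1a1, Col3a1, Dcn and Lum) had a mean level of -5.80 and the adipocyte list -6.28, with 4 of the 5 fibroblast genes and 5 of the 6 adipocyte genes not well above background. That array also had the highest neutrophil list, at 4.10. These fibroblast markers should be plain in stromal vascular cells, and this array was the only 1 of 38 with their list below 0.

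A further 10 of the 38 arrays had an adipocyte list (Adipoq, Lep, Plin1, Cidec, Retn and Cfd) above 4. Its mean level was 6.08, 5.24 and 4.92 on the LFC arrays of day 6, week 9 and week 12. It was 4.42, 5.68 and 4.89 on the HFC arrays of day 1, day 6 and week 9, and 5.06 on HF5 of week 9. On HF20 it was 5.21, 5.64 and 5.25 at weeks 9, 12 and 15. On the 38 arrays its median was 1.95, and Cfd had the highest value of the list on 30 of them. Adipoq, Plin1, Cidec, Retn and Cfd were saturated on all 4 week 9 arrays named here. The list levels of these arrays are therefore lower bounds, and the order of its genes is not measured there. Adipocytes are the cells that the preparation is meant to remove, and every measured gene of the list was well above background on 36 of the 38 arrays. The macrophage list (Emr1, Cd68, Csf1r, Itgam, Cd14, Fcgr1, Mertk and Lyz2) had every measured gene well above background on 35 of the 38 arrays. On the dim LFC array of week 3 none was. Its mean level ran from -1.72 on HFC of day 1 to 2.21 on HFC of week 6, with a median of 0.39 and Cd14 or Emr1 as the brightest gene on 21 and 13 arrays. In these bulk samples, fewer cells of a type and less RNA per cell cannot be told apart.

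Il6, a cytokine made by macrophages, fibroblasts and preadipocytes, varied most of the members. On LFC it ran from -6.12 at week 12 over a median of 2.55 to 6.18 at week 15, where its spot was saturated, and on HFC from -6.83 at day 1, not well above background, over 3.10 to 5.09 at day 10. On HF5 it ran from -4.38 at week 9 over 3.55 to 5.75 at week 15. The 5 HF20 arrays gave 4.17, 1.43, -6.03, -6.49 and -4.62 from week 3 to week 15, and the 5 HF75 arrays 2.83, 3.23, 2.23, 4.28 and 5.41. In words, HF20 was high at its first 2 time points and low at the other 3, HF75 was high at all 5, and low values also stood on LFC and HFC, so the ranges of the 5 diets overlap. By the median over each diet's own time points, the order was HF5, HF75, HFC, LFC and HF20. These time points differ between the diets, and over weeks 3 to 15 alone HF5 did not come first. The SD within a group was 1.26 on HF75 and 3.77 to 4.81 on the other diets, wider than the gaps between the first 4 medians.

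Tnf, a cytokine that starts the NF-kB response, was well above background on 36 of 38 arrays. On LFC it ran from -5.45 at week 12 to 1.24 at week 15 and its median was -0.04, or -0.76 if the raised value of week 3 in truth lies below the others, and on HFC from -5.59 at day 1 over 0.53 to 3.63 at week 6. On HF5 it ran from -4.45 at week 9 over 0.30 to 2.11 at week 6. The HF20 arrays gave -0.01, 0.97, -3.45, -4.53 and -4.90 in time order, and the HF75 arrays -0.63, 0.45, -0.59, -1.76 and -0.49. The low Tnf values of HF20 fell on the same arrays as its low Il6 values, weeks 9, 12 and 15, and the ranges of all 5 diets overlap.

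Il1b, the secreted interleukin-1 that is cut from its precursor by the inflammasome, was well above background on 37 of 38 arrays. It ran from -6.26 at week 12 over a median of 1.92 to 3.71 at week 6 on LFC, and from -2.51 at day 1 over 2.14 to 3.84 at week 6 on HFC. On HF5 the lowest was -4.67 at week 9, the median 2.52 and the highest 5.90 at week 3, the highest of all arrays. HF20 gave 2.61, 1.46, -2.92, -6.71 and -2.54, with the value of week 12 not well above background, and HF75 gave 2.64, 3.22, 1.91, 1.97 and 3.14. The HF75 values had an SD of 0.62 and lay inside the ranges of LFC, HFC and HF5, and 3 of the 5 were above the highest HF20 value.

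Il1a, the cell-bound interleukin-1, was dim. It was well above background on 23 of 38 arrays, and its highest measured level on an array other than LFC of week 3 and day 14 was -2.08, on HFC of week 6. Il12b, the shared subunit of interleukin-12 and interleukin-23, was well above background on 4 of 10 LFC arrays, 7 of 11 HFC, 1 of 6 HF5, 2 of 5 HF20 and 3 of 5 HF75, and its highest level on an array other than LFC of week 3 was -2.27, on HF5 of week 3. Its LFC value of day 14 was dropped because its spot was marked as an outlier.

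Of the enzymes, Nos2 makes nitric oxide and Ptgs2 makes the precursor of prostaglandins. Nos2 was well above background on 3 of 11 LFC arrays, 1 of 11 HFC, 0 of 6 HF5, 2 of 5 HF20 and 0 of 5 HF75, so on most arrays its level was not told from background and no diet difference is given. Ptgs2 was well above background on 32 of 38 arrays. It ran from -6.51 to 1.67 on LFC, with a median of -2.44, or -3.65 if the raised value of week 3 lies below the others, from -5.73 over -1.62 to 1.29 on HFC and from -6.70 over 0.27 to 1.28 on HF5. On HF20 it was -2.33, 1.96, -6.09, -7.85 and -5.36 and on HF75 -1.69, 0.67, -2.33, -1.26 and -0.69. Ptgs2 was not well above background at its lowest values on LFC, HF5 and HF20. Its highest level on LFC, HFC, HF20 and HF75 was that of week 6, and on HF5 that of week 15.

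Il1rn encodes the antagonist that occupies the interleukin-1 receptor without signalling. Its brighter probe was well above background on 33 of 38 arrays and ran from -7.63 on LFC of week 12, not well above background, to 1.85 on HF5 of week 15. Its other probe was well above background on 10 of 38. HF75 gave -2.31, -2.97, -2.52, -2.32 and 0.43, so that 4 arrays lay close together and week 15 stood above them.

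Nfkbia, which holds NF-kB in the cytoplasm, was well above background on all 37 arrays with a value and saturated on 14 of them, which makes its upper levels lower bounds. Its LFC value of day 1 was dropped as an outlier. The level ran from 2.37 over a median of 4.90 to 8.10 on LFC, from 2.78 over 5.85 to 6.74 on HFC and from 4.05 over 6.29 to 6.98 on HF5, the 8.10 being on the dim array of week 3. HF20 gave 6.36, 5.01, 3.70, 3.40 and 4.38 and HF75 gave 6.95, 6.73, 6.60, 6.27 and 6.44. All HF75 values lay above 4 of the 5 HF20 values, and only HF20 of week 3 reached them.

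Tnfaip3, the ubiquitin-editing enzyme A20 that ends NF-kB signalling, was well above background on all 38 arrays. On LFC it ran from -1.51 at week 12 over a median of 0.42 to 4.44 at week 15, on HFC from -1.83 at day 1 over 4.01 to 5.07 at week 6, and on HF5 from -0.52 at week 9 over 4.61 to 5.41 at week 3. HF20 gave 3.87, 2.66, -0.67, -1.02 and -0.37 and HF75 gave 4.11, 3.21, 5.16, 4.08 and 3.93. All 5 HF75 values stood above 4 of the 5 HF20 values, and the ranges of the 5 diets overlap.

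**Figure D1:**
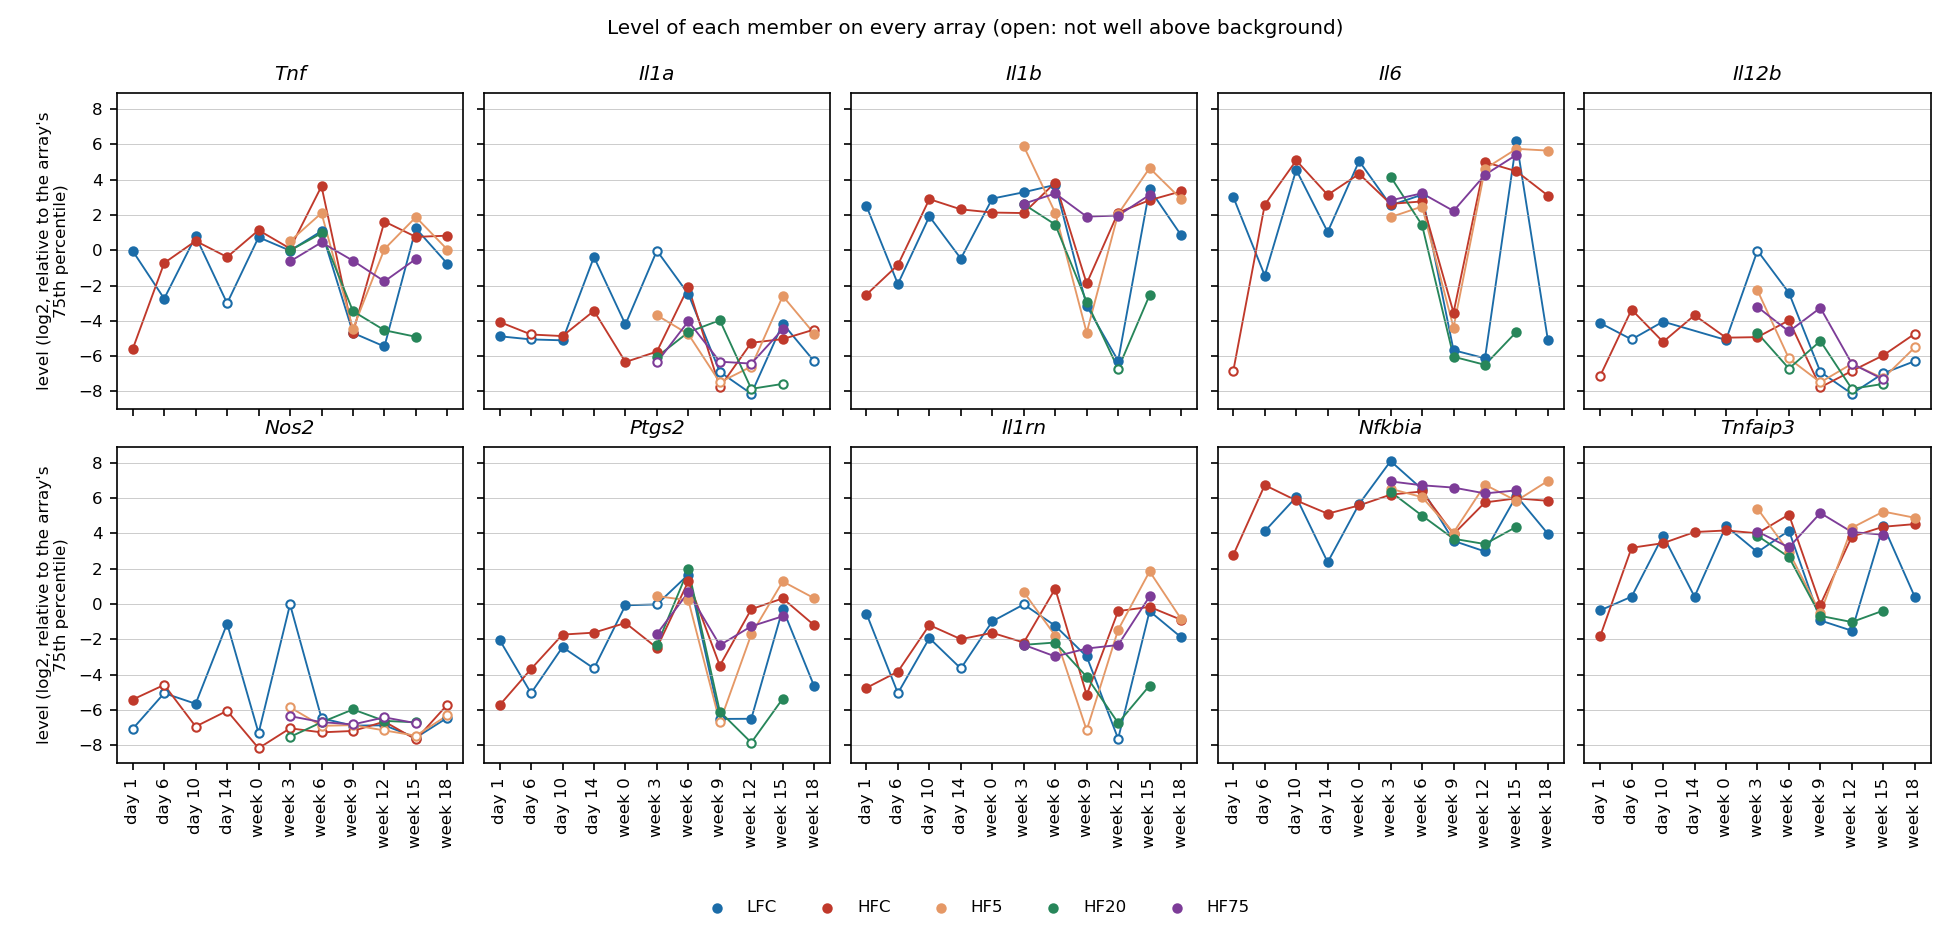
Level of each member (y axis, log2, with the 75th percentile of each array at 0) on every array by time point (x axis, in order, not to scale) with a line for each diet and open points where the value was not well above background. Il6 dropped to between -6.03 and -3.53 on the 4 week 9 arrays of LFC, HFC, HF5 and HF20, while HF75 of week 9 stood at 2.23.

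The low values of the members fell together. Of the 8 brighter members, all 8 were in the lowest 25% of their own values on LFC of week 12, HF5 of week 9 and HF20 of week 12. On LFC of week 9, HFC of day 1, HFC of week 9, HF20 of week 9 and HF20 of week 15, 7 of the 8 were, and on LFC of day 6, 6 were, or 5 if the raised values of LFC of week 3 lie lowest. A list of early response genes, which tissue digestion is known to induce (Fos, Fosb, Jun, Junb, Egr1, Atf3, Nr4a1, Hspa1a and Ier2), had a mean level of -0.30, 0.57 and -0.84 on the first 3 of these arrays, against a median of 4.99 over all 38. It was -0.11, 0.36, 3.45, 0.46 and 2.17 on the following 5 and 1.15 on LFC of day 6. Junb had the highest value of the list on 24 of 38 arrays. At weeks 6 and 15, Junb and Nr4a1 were each saturated on 7 of the 8 arrays of LFC, HFC, HF5 and HF20, so their order is not measured there. The adipocyte list was above 4 on each of the 9 arrays with low members, and HFC of day 6 was the only other with such a level, with an adipocyte list of 5.68, an early response list of 4.64 and an Il6 level of 2.58. The macrophage list on the same arrays lay between -1.72 on HFC of day 1 and 0.61 on HFC of week 9. The neutrophil list lay between -3.48 on HF5 of week 9 and -1.65 on HF20 of week 15, against a median of -0.56 over all 38. It was as low on arrays where the members were not, with -3.22 on LFC of week 6 and -2.97 on HF20 of week 6. What part of the members' levels goes with tissue handling or with the share of adipocytes or neutrophils was not tested.

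**Figure D2:**
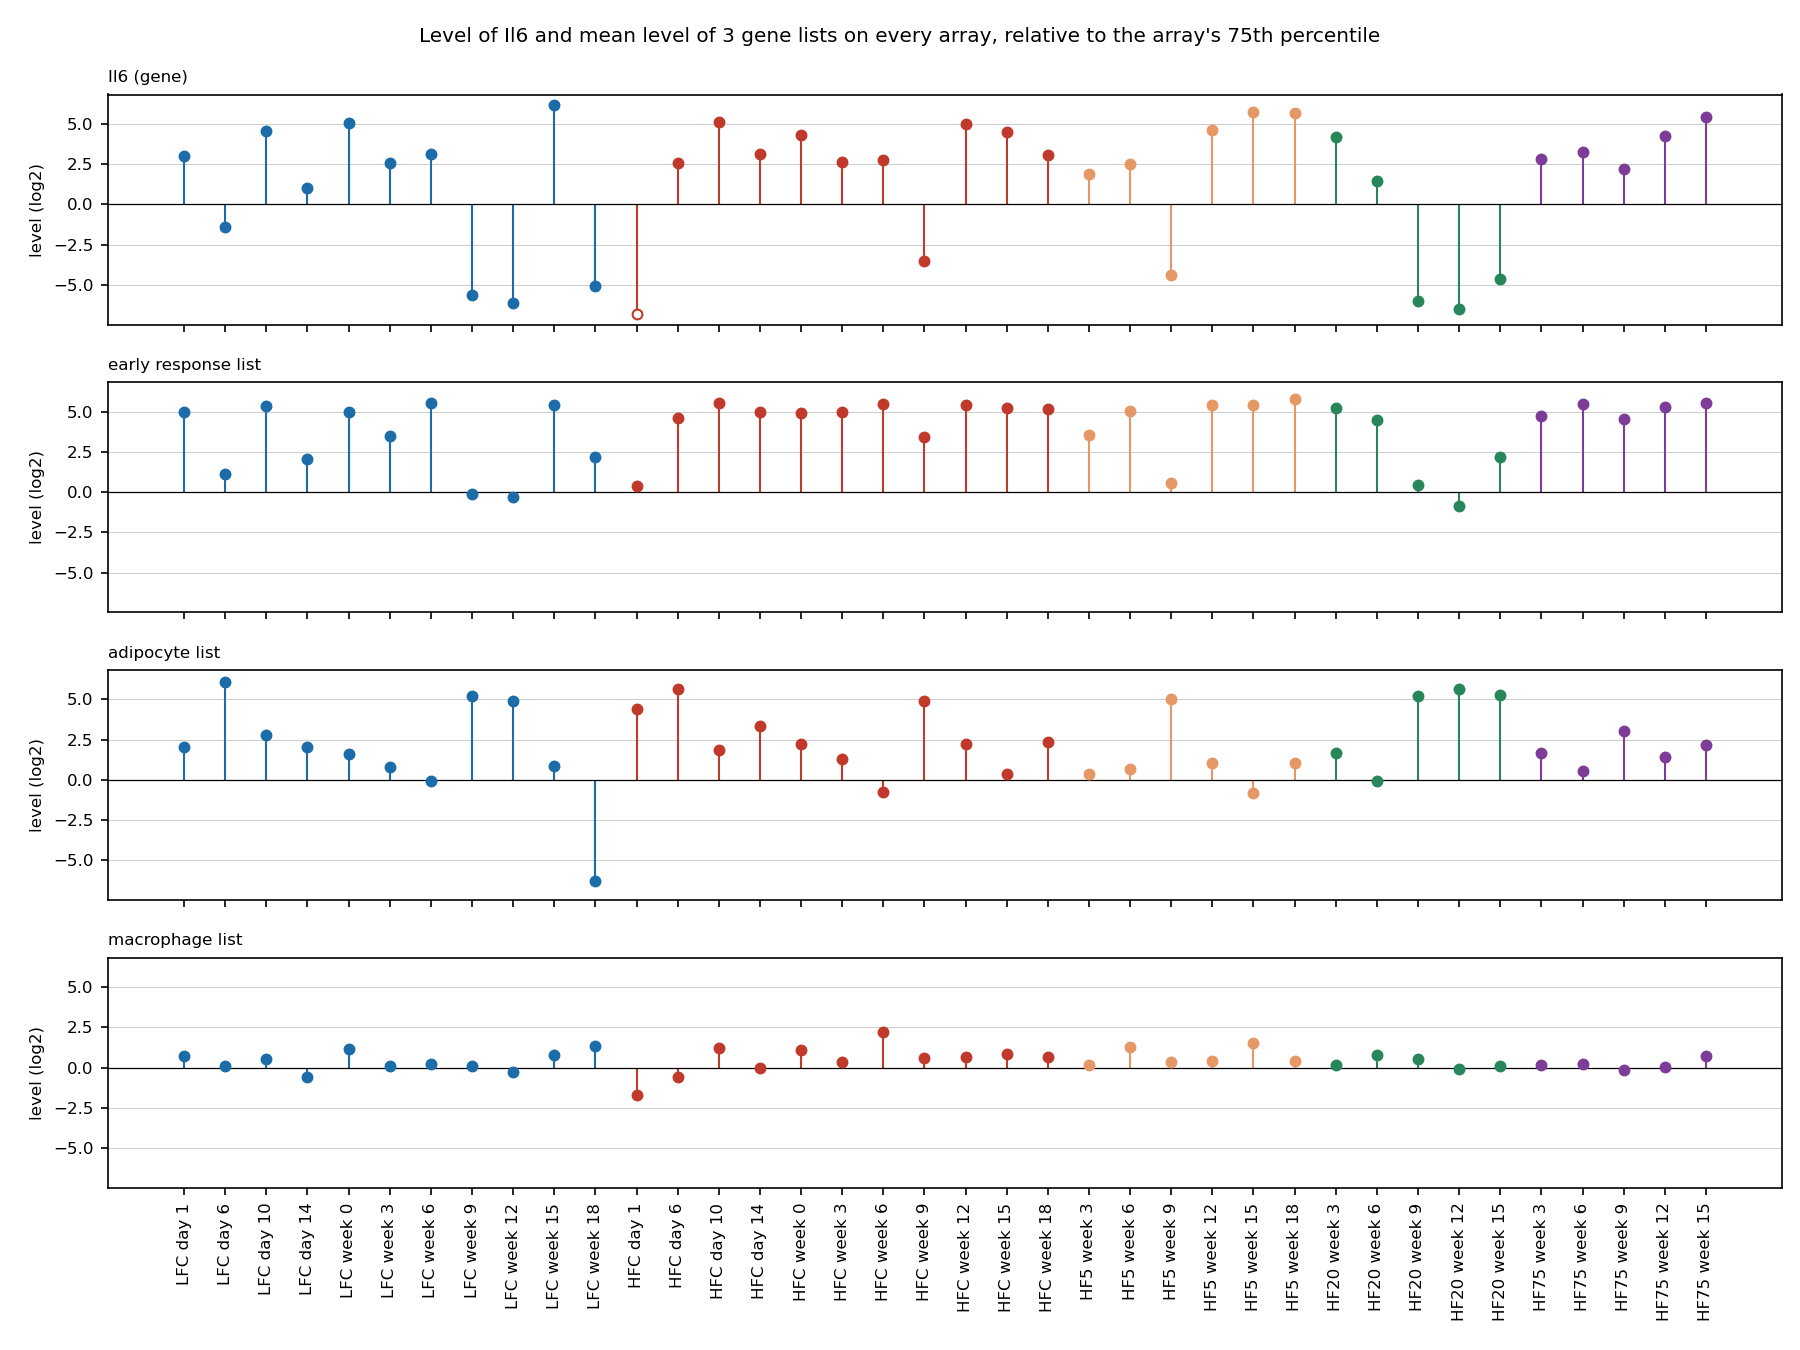
Level of Il6 and mean level of the early response, adipocyte and macrophage lists (y axes, log2, with the 75th percentile of each array at 0) on each of the 38 arrays (x axis), coloured by diet, with an open point where Il6 was not well above background. On HF20 of week 12 Il6 stood at -6.49 with an early response list of -0.84 and an adipocyte list of 5.64, and on LFC of week 18, with an adipocyte list of -6.28, Il6 stood at -5.10.

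The first comparison asks whether a high-fat diet changed these genes against the low-fat diet, over the 11 time points as pairs. Tnfaip3 had the largest difference, a mean of 3.17 on HFC and 1.66 on LFC. The difference was 1.51 ± 0.55 (SE), with a 95% interval of 0.35 to 2.66, and HFC was higher in 7 of 11 pairs. Its unadjusted p was 0.0139 and its limma adjusted p 0.943, so it did not pass the threshold of 0.05. Il6 was 1.41 higher on HFC (SE 1.29, 7 of 11 pairs), Tnf 0.92 higher (SE 0.74, 8 of 11 pairs) and Il1b 0.86 higher (SE 0.79, 7 of 11 pairs), each with an adjusted p of 0.943. Of the 9 members tested, 0 were called, against 0% of the 29215 probes tested with limma, of which 878 had an unadjusted p under 0.05. The differences were above 0 for 7 members and below 0 for Il1a and Il12b, and their median was 0.86, against -0.08 over all probes. The raised values of the dim LFC array of week 3 enter the differences of Tnf, Il1a, Il12b, Ptgs2 and Il1rn. Il1a and Il12b were at -0.56 and -0.58, and without the pair of week 3 at -0.05 and -0.10. Most of their size thus rests on values with no order, though both stayed below 0. With the pair of day 14 also left out, Il1a was 0.28.

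The pairs of arrays disagreed widely. For Il6 HFC was lower by far at day 1, with a difference of -9.85 against an HFC value not well above background, and higher at weeks 12 and 18, with 11.12 and 8.20. Each of these 3 pairs holds an array that stands apart, HFC of day 1, LFC of week 12 and LFC of week 18. At day 10, week 0, week 6 and week 15, where neither array does, the Il6 differences were 0.52, -0.73, -0.38 and -1.69. Il6 was saturated on LFC of week 15, so the last of these and each Il6 mean that includes it are not exact. With only these 4 pairs, a choice made after the values were seen, the difference of Tnfaip3 was 0.04 (SE 0.25), that of Il6 -0.57 (SE 0.35) and that of Tnf 0.54 (SE 0.51). The median over the 9 members was then -0.08 and 0 were called by limma, with 1097 of 30982 probes at an unadjusted p under 0.05.

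**Figure D3:**
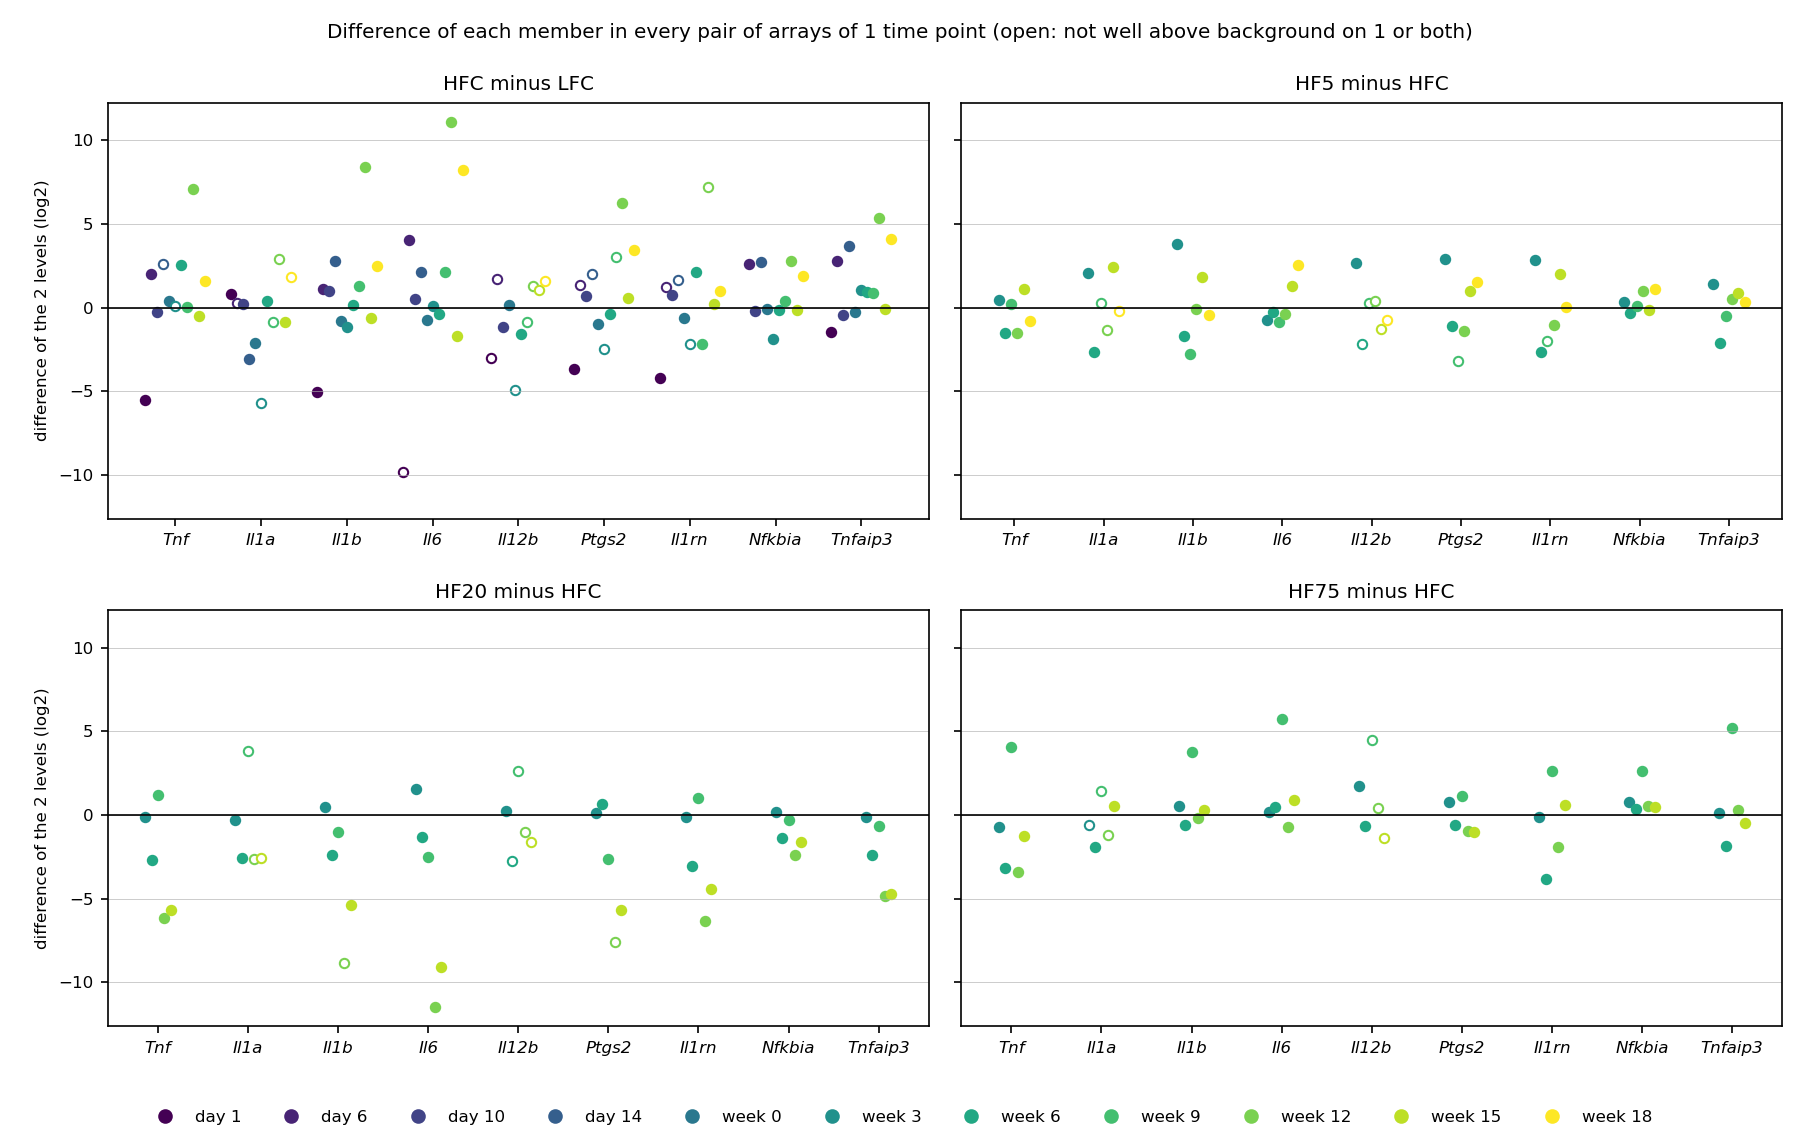
Difference of the levels of each member (y axis, log2) in each pair of arrays of 1 time point, in 4 panels for HFC minus LFC, HF5 minus HFC, HF20 minus HFC and HF75 minus HFC, coloured by time point, with open points where a value was not well above background on at least 1 array. For Il6 the pairs of HFC and LFC spread from -9.85 to 11.12, and those of HF20 and HFC from -11.48 at week 12 to 1.55 at week 3.

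Among the marker lists, the epithelial genes differed most, lower on HFC in 4 of 4 with a median difference of -1.57. The early response genes were higher in 9 of 9 (median 1.39), the fibroblast genes in 5 of 5 (median 1.28), the endothelial genes in 5 of 5 (median 1.26), the adipocyte genes in 5 of 6 (median 0.87), the macrophage genes in 6 of 8 (median 0.16) and the neutrophil genes in 1 of 6 (median -0.34). Part of this rests on LFC of week 18. Without the pair of week 18 the medians were 0.41 for the fibroblast genes, 0.58 for the endothelial, 0.03 for the adipocyte, with 3 of 6 higher, and -0.03 for the neutrophil, with 3 of 6 higher, against 1.27 for the early response, -1.69 for the epithelial and 0.17 for the macrophage genes. None was called in either setting. The part of these lists in the members' differences was not tested. Spots of the early response, adipocyte, fibroblast, neutrophil and erythroid lists were saturated on arrays of weeks 6, 9 or 15. The medians of these lists, here and in the comparisons below, are therefore not taken as exact.

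For the lowest dose of Kal-1, the mean differences over the 6 pairs of HF5 and HFC ran from -0.35 ± 0.38 (SE) for Tnf, lower in 3 of 6 pairs, to 0.35 ± 0.22 for Nfkbia, higher in 4 of 6, with its spot saturated on 4 of the 6 HF5 arrays. The 95% interval was -1.22 to 0.52 for Tnf and -0.77 to 1.29 for Il6, so effects of a log2 unit remain within it. With limma, 0 of 9 members were called, against 0% of 29200 probes, of which 1434 had an unadjusted p under 0.05. At week 9, the HF5 and HFC arrays were both low and the Il6 difference was -0.85. At week 3, Il1b was 3.80 higher on HF5 and Il1rn 2.87, and at week 6 they were -1.71 and -2.66, the opposite direction. The 2 arrays of week 3 also differed in cell markers. On HF5 and HFC, the neutrophil list stood at 2.15 and -0.56, the fibroblast list at 2.63 and 4.95, the endothelial list at -1.91, the lowest of the HF5 arrays, and 1.78, and the early response list at 3.55 and 5.00. Among the marker lists, the epithelial genes differed most, higher on HF5 in 4 of 4 with a median of 2.24. The erythroid genes were lower in 3 of 3 (median -0.90), the early response genes in 9 of 9 (median -0.60), the adipocyte genes in 6 of 6 (median -0.58), the fibroblast genes in 5 of 5 (median -0.51) and the macrophage genes in 6 of 8 (median -0.33). None was called, and their part in the members' differences was not tested.

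For the middle dose, the members had lower mean levels in HF20, and 3 of its 5 arrays stand apart. All 9 members tested had a lower mean on HF20 than on HFC, with a median difference of -2.59 against 0.08 over all probes. Il6 differed by -4.58 ± 1.82 (SE), with a mean of -2.31 on HF20, lower in 4 of 5 pairs. Tnfaip3 differed by -2.56 ± 0.75 and was lower in 5 of 5 pairs, and Il1b differed by -3.43 ± 1.24, lower in 4 of 5. Their unadjusted p was 0.0386, 0.0102 and 0.0267, and the limma adjusted p was 0.398 for each. Of 9 members 7 had an unadjusted p under 0.05 and 0 were called, against 0% of 30831 probes, of which 3786 had an unadjusted p under 0.05.

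For 7 of the 9 members, the HF20 differences were largest in size at weeks 12 and 15. The others were Il1a and Il12b, dim genes that were 3.80 and 2.62 higher on HF20 at week 9, where the HFC value was not well above background. For Il6 they were 1.55, -1.34, -2.50, -11.48 and -9.11 from week 3 to week 15, for Tnf -0.11, -2.66, 1.21, -6.15 and -5.66 and for Tnfaip3 -0.14, -2.40, -0.65, -4.84 and -4.75. At week 9, both arrays carried the letters WS and both were low. With weeks 3 and 6 alone, a choice made after the values were seen that leaves 2 pairs, the difference was 0.10 (SE 0.66) for Il6, 0.41 (SE 0.37) for Ptgs2 and -1.38 (SE 0.59) for Tnf. In that setting 7 of 9 members were below 0, among them Il1rn at -1.59, Il1a at -1.43 and Tnfaip3 at -1.27. The median of the 9 members was -1.25, against -0.06 over all probes. With limma 0 members were called there, and 1368 of 32056 probes had an unadjusted p under 0.05. The title of the HF20 array of week 12, and of the LFC array of week 12, holds no week, unlike those of the other arrays of that week, and both were placed by their other labels. Over the 5 pairs, 6 of 6 adipocyte genes were higher on HF20 with a median of 2.09, and 9 of 9 early response genes and 6 of 6 neutrophil genes were lower, with medians of -2.69 and -1.72. The macrophage genes were lower in 8 of 8, with a median of -0.48. None of these genes was called, and the part of these lists in the members' differences was not tested.

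For the highest dose, HF75, the members did not move 1 way. Nfkbia was 0.94 ± 0.37 (SE) higher, in 5 of 5 pairs, with an unadjusted p of 0.0380 and a limma adjusted p of 0.306. Its spot was saturated on both arrays of weeks 6 and 15 and on HF75 of week 3, so the size of the difference and the count of pairs are not exact. Il6 was 1.32 ± 0.86 higher, in 4 of 5 pairs, and Tnf differed by -0.89 ± 1.01 and was lower in 4 of 5. Of 9 members 0 were called, against 1.13% of 28910 probes, 259 higher and 67 lower, and 4208 probes had an unadjusted p under 0.05. The count of called probes, 326, ran from 37 without week 3 to 335 with each pair left out in turn. With the pairing left out it was 1. The pair of week 9 stood far from the other 4, and there HFC was an array with WS in its title and HF75 was not. Its differences were 5.76 for Il6, 4.07 for Tnf and 5.19 for Tnfaip3, and at weeks 3, 6, 12 and 15 those of Tnf were -0.73, -3.17, -3.38 and -1.25. Without week 9, Tnf differed by -2.13 ± 0.50, lower in each of the 4 pairs, with an unadjusted p of 0.00445 and an adjusted p of 0.101, and Tnfaip3 by -0.48 ± 0.36. Without it Il6 differed by 0.22 ± 0.28 and Nfkbia by 0.52 ± 0.13. Il1rn was also lower at weeks 6 and 12, with -3.84 and -1.91, and was 0.59 higher at week 15.

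With a normexp background correction, the differences of Tnf and Nfkbia on HF75 passed the threshold. They were -1.26 with a limma adjusted p of 0.0243 and 1.14 with 0.0457, beside 2.28% of 28910 probes called in that setting, and over all alternatives the adjusted p ran from 0.0243 to 0.971 for Tnf and from 0.0457 to 0.901 for Nfkbia. For Nfkbia the saturated spots enter this fit too, so its call does not rest on exact levels. With no filter on dim probes, Nos2 was called, beside 18.7% of 40628 probes, but Nos2 was well above background on 0 of the 5 HF75 arrays and on none of the HFC arrays of the same weeks, so that difference is between values not told from background. The array pairs of weeks 3, 6 and 9 were scanned on different days, and with the 2 pairs scanned on 1 day 0 probes were called. In HF75, 7 of 8 macrophage genes were lower (median -0.78), as were 4 of 5 fibroblast genes (median -0.83), 5 of 5 mast cell genes (median -1.27) and 3 of 3 erythroid genes (median -1.45). The epithelial genes were higher in 4 of 4 (median 1.28), the skeletal muscle genes in 4 of 4 (median 1.07), the neutrophil genes in 4 of 6 (median 0.73) and the early response genes in 6 of 9 (median 0.14), and 3 of 6 adipocyte genes were (median 0.25). None of these genes was called, and their part in the members' differences was not tested.

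Time on the diets was compared next, with weeks 3 to 18 as late and days 1 to 14 and week 0 as early, over both diets. Time on diet and the age of the mice cannot be told apart here, and neither can period and scan day, since no scan day holds both periods. Ptgs2 was 0.86 ± 0.94 (SE) higher late, Il6 differed by -1.27 ± 1.58, and the differences of the other 7 members lay between these. The raised values of the dim LFC array of week 3 enter the late side for Tnf, Il1a, Il12b, Ptgs2 and Il1rn. The sizes for these genes are therefore not exact. All adjusted p were 1.000, 0 of 9 members were called, against 0.00330% of 30259 probes (1 probe, of the immunoglobulin gene Igh, named after its value was seen), and 1336 probes had an unadjusted p under 0.05. Without the arrays that stand apart, chosen after the values were seen, Ptgs2 was 1.47 ± 0.61 higher late, with an adjusted p of 0.318, the lowest over its alternatives, which reached 1.00. There 7 of 9 members were above 0, and 3 had an unadjusted limma p under 0.05. These were Ptgs2 (0.0315), Nfkbia, 0.49 higher (0.0263), and Il1b, 0.69 higher (0.0472). Saturated spots make the size for Nfkbia inexact. Il6 shrank there to -0.18 ± 0.60, and with each array left out in turn it ran from -2.39 without HFC of day 1 to -0.67 without LFC of week 12. In that setting limma called 19 probes and 0 members, with 4096 of 30136 probes at an unadjusted p under 0.05. Over all arrays, the adipocyte genes were lower late in 5 of 6 (median -2.28), the lymph node stroma genes in 3 of 4 (median -1.69) and the endothelial genes in 5 of 5 (median -1.46), while 6 of 8 macrophage genes were higher (median 0.45) and 3 of 9 early response genes were (median -0.08). None was called, and their part in the members' differences was not tested.

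Whether the difference between the diets itself changed between the periods was also tested. Il6 had the largest estimate, with an HFC minus LFC difference 4.03 ± 2.44 (SE) greater late than early, followed by Tnf with 1.96 ± 1.44 and Il1b with 1.94 ± 1.56. The limma adjusted p was 0.813 for each, and 0 of 9 members were called, against 0% of 29215 probes, of which 1423 had an unadjusted p under 0.05. With each pair left out in turn, the estimate ran from 1.77 to 5.23 for Il6, from 0.62 to 2.66 for Tnf and from 0.60 to 2.68 for Il1b. The raised values of LFC of week 3 enter the estimates of Tnf, Il1a, Il12b, Ptgs2 and Il1rn too. Those estimates are therefore not exact. With only the 4 pairs of arrays that do not stand apart, the estimate for Il6 was -0.93 ± 0.62. Over the 11 pairs, the estimates of the early response genes were above 0 in 9 of 9 (median 1.83), of the fibroblast genes in 5 of 5 (median 2.11) and of the macrophage genes in 8 of 8 (median 0.93). Without the pair of week 18, the fibroblast genes were above 0 in 3 of 5 (median 0.18), the early response genes in 9 of 9 (median 1.86) and the macrophage genes in 8 of 8 (median 1.22). Leaving out that pair took the adipocyte genes from 4 of 6 above 0 (median 0.33) to 0 of 6 (median -1.32). It took the endothelial genes from 5 of 5 (median 0.60) to 1 of 5 (median -0.34) and the neutrophil genes from 3 of 6 (median 0.19) to 6 of 6 (median 0.81). Over the 11 pairs, the estimates of the T cell genes were above 0 in 4 of 5 (median 3.79), of the B cell genes in 4 of 4 (median 3.54) and of the lymph node stroma genes in 3 of 4 (median 3.66), against a median of -0.50 over all probes. None was called, and their part in the members' estimates was not tested.

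The titles of the week 9 arrays of LFC, HFC, HF5 and HF20 hold the letters WS, whose meaning the labels do not give, and that of HF75 of week 9 does not. Tnf, Il1b, Il6, Ptgs2, Nfkbia and Tnfaip3 lay on all 4 below the mean of their diet at weeks 6, 12 and 15. Il1rn did so on 2. Il1a, Il12b and Nos2 were well above background on 1 of the 4, so no direction is given for them, and Il1a on HF20 of week 9, at -3.96, was the highest of the HF20 arrays. Il6 stood at -5.66 on LFC, -3.53 on HFC, -4.38 on HF5 and -6.03 on HF20, and Tnf at -4.68, -4.66, -4.45 and -3.45 in the same order. Tnfaip3 stood at -0.93, -0.03, -0.52 and -0.67, and Nfkbia at 3.58, 3.96, 4.05 and 3.70. HF75 of week 9 had 2.23 for Il6, -0.59 for Tnf, 5.16 for Tnfaip3 and 6.60 for Nfkbia, all above the 4 WS arrays. These 4 were scanned on a day that holds no other array, so the letters and the scan day cannot be told apart.

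Set against the 12 arrays of the same diets at weeks 6, 12 and 15, the 4 WS arrays differed by -6.45 ± 1.83 (SE) in Il6, -4.42 ± 1.56 in Ptgs2, -4.19 ± 1.33 in Tnf and -3.38 ± 0.98 in Tnfaip3. Ptgs2 was not well above background on 2 of the 4 WS arrays, LFC and HF5, so its difference is not exact, and nor is that of Il6, which was saturated on LFC of week 15. The limma adjusted p was 0.147 for Il6, Tnf and Tnfaip3 and 0.156 for Ptgs2, and over the alternatives that of Il6 ran from 2.10e-04 with array weights to 0.556 without the HF5 arrays. With scan day as a random block it was 0.489, and with array weights 8 of 8 members were called, beside 47.0% of probes. Of 8 members tested 6 had an unadjusted p under 0.05 and 0 were called, against 0% of 30970 probes, of which 7137 had an unadjusted p under 0.05. Il12b and Nos2 were too dim to be tested.

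The 12 arrays include LFC and HF20 of week 12 and HF20 of week 15, whose members were as low. Against weeks 6 and 15 alone, 7 of 8 members were called lower, beside 9.41% of 31346 probes. With scan day as a random block in the same setting, added after the values were seen, limma called 0 of 8 members and 0 probes, with 5114 probes at an unadjusted p under 0.05, and Il6 differed by -7.60 ± 1.86 with an adjusted p of 0.231. With slide as a random block it also called 0 probes, with 4844 at an unadjusted p under 0.05. Without a block, the setting compares 1 scan day with 2 others and takes the arrays as replicates. Leaving out week 12 removes 2 of these low arrays from the comparison side and keeps HF20 of week 15, and this setting was written with earlier results of these data known. In it, with no block, Il6 differed by -7.60 ± 1.26, Ptgs2 by -5.83 ± 1.17, Il1b by -5.60 ± 0.95 and Tnf by -5.16 ± 1.13, with adjusted p of 0.0307, 0.0314, 0.0307 and 0.0328. Il1a was the member not called, at -2.36 with an adjusted p of 0.174.

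Against weeks 6 and 15 with no block for scan day, some genes of the pathway around the members were called, and with that block no pathway or marker gene was. Of 9 feedback genes, 6 were called lower and 0 higher, among them Ier3 (-4.39) and Zfp36 (-3.88), whose protein binds cytokine mRNAs and speeds their decay. Socs3, the inhibitor of Il6 receptor signalling, and the anti-inflammatory cytokine Il10 were also called lower, at -4.42 and -4.33, but neither size is exact. Socs3 was saturated on 6 of the 8 arrays of weeks 6 and 15, and Il10 was not well above background on 2 of the 4 WS arrays. Of 18 NF-kB and adaptor genes, 5 were called lower and 1 higher, with Nfkbiz (-4.17), the NF-kB subunit Rel (-2.47) and Bcl3 (-2.01) lower and Ikbkg (1.76), a scaffold of the IkB kinase, higher. Of 8 receptors, 12 other M1-type genes and 5 genes of the inflammasome and interleukin-1 processing, 0 were called with limma, with smallest adjusted p of 0.0719, 0.0665 and 0.0785. Beside them 8 of 9 early response genes were called lower (median of the list -3.17), 4 of 4 epithelial genes lower (median -5.02), 5 of 6 adipocyte genes higher (median 4.68) 1 of 5 fibroblast genes, Pdgfra, lower (-1.30, adjusted p 0.0323, with 5 of 5 below 0 and a median of -0.47) and 1 of 8 macrophage genes, Cd14, lower (median -0.16). The neutrophil genes were lower in 5 of 6 (median -1.46), with a smallest adjusted p of 0.0722. Saturated spots enter the early response, adipocyte, fibroblast and neutrophil lists, and the epithelial genes Krt8 and Epcam were well above background on 1 of the 4 WS arrays, so these medians are not exact. The part of these lists in the members' differences was not tested. In the 7 comparisons as first given, no gene of a pathway or marker list was called.

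Genes with the pattern most like a member over the arrays were found by Pearson's r of the level over 36 arrays, without the LFC arrays of week 3 and day 14, among 19109 genes. These r describe the arrays, which share the low arrays named above, and carry no p. For Tnf they were Cxcl2 (0.951), Ccl4 (0.948) and Il10 (0.941), and for Il1b the chemokine Ccl3 (0.962), Ccrl2 (0.959) and Cxcl2 (0.945). For Il6 they were the stress-response factor Atf3 (0.957), Rgs16 (0.956) and Gem (0.954), none of them a cytokine. For Il1rn they were the C-type lectin genes Clec4d (0.939) and Clec4e (0.935) and Ccl3 (0.928), and for Ptgs2 Nt5e (0.925), Nxnl2 (0.919) and Gm2251 (0.918). For Tnfaip3 they were Csrnp1 (0.913), Ccl4 (0.912) and Nfkbiz (0.903). For Nfkbia over 35 arrays they were Nr4a1 (0.932), Socs3 (0.925) and Tnfaip3 (0.922), but Nfkbia was saturated on 14 of the 35, together with Nr4a1 on 12 and with Socs3 on 11, so these r and their order are partly set by the limit of the scanner. Il1a had lower values, Clcn5 (0.854), Vdr (0.849) and Edn2 (0.780), and was well above background on 22 of the 36 arrays, so these r rest in part on values not told from background. Il12b and Nos2 were too dim for this.

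Because the members moved together on the arrays and are known targets of NF-kB and AP-1, their promoters were searched for both motifs. RefSeq sequences of build GRCm38.p6, from 250 bases before to 50 after each start, were matched for 9 of the 10 members, with 12 promoters, and not for Nos2. The NF-kB consensus of 10 letters was searched on both strands and stands in the promoters of 3 members, Il6, Nfkbia and Tnfaip3. Counted by promoter, it stands in 3 of the 12 of the members and in 4.51% of 32851 promoters of all genes. The AP-1 core TGANTCA, on both strands, stands in those of 4 members, Il1a, Il6, Il1rn and Tnfaip3. By promoter, that is 4 of the 12 of the members, and 7.81% of all promoters hold it. A match is a description of these letters, not a bound site.

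The windows with the NF-kB consensus are shown because these are the 3 members with a match. Tnf, Il1b and Ptgs2 also lay below the mean of their diet on all 4 WS arrays, and these letters do not stand in their windows. The windows are printed 5′ to 3′ on the strand of the gene, with the motif in capitals. They lie at chr5:30013060-30013089 (Il6, plus strand), chr12:55492657-55492686 (Nfkbia, minus strand), and chr10:19015516-19015545 and chr10:19015403-19015432 (Tnfaip3, minus strand), and the first motif base stands at -44, -29, -125 and -12 from the start of the gene.
Il6: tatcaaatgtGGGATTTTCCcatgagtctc
Nfkbia: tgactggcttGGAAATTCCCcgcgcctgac
Tnfaip3, far match: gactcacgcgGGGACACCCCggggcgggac
Tnfaip3, near match: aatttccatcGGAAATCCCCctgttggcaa

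The windows with the AP-1 core follow for comparison, with its letters in capitals, at chr2:129309968-129309994 (Il1a, minus strand), chr5:30012864-30012881 (Il6, plus strand), chr2:24336709-24336735 (Il1rn, plus strand) and chr10:19015530-19015556 (Tnfaip3, minus strand). The first motif base stands at -12, -249, -141 and -136, and in Tnfaip3 this window overlaps that of the far NF-kB match, while the motifs themselves do not.
Il1a: cagagaagccTGACTCAgacttaagtc
Il6: cTGAGTCActtttaaaga
Il1rn: tctgctagacTGAGTCAcgcctctgga
Tnfaip3: aatgcccaggTGACTCAcgcggggaca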

How the data were processed

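Per the file headers, the deposited intensity values come from Agilent Feature Extraction 10.5.1.1, with the background subtracted and spatial trends removed within each array and no normalization between arrays. The submitters' processing notes name version 9.1. The authors also deposited a fold change table, whose 40 columns of log2 fold changes against the control were not used, only its gene symbols. The log2 intensity of each spot was shifted by the 75th percentile of its array, spots marked as outliers were dropped and duplicate spots were averaged. A probe counted as well above background when 50% or more of its spots did. The ratio of spot signal to background had a median of 4.86 over the arrays (1.53 to 55.0). The number of arrays limits the precision.

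Groups came from the sample labels. Each comparison used limma 3.58.1 (R 4.3.3, empirical Bayes with trend) on probes that passed this on 50% or more of the arrays in 1 group or the other, with the time point as a block for the pairs of diets, the pair differences as values for the late and early diet effects, diet as a term for late against early and as a block for the WS arrays. Tests were two-sided, Benjamini-Hochberg adjusted over all probes tested, and called at 0.05. The fit for the pairs of diets was checked on simulated data, and the other fits were not. Tables and plots used Python 3.11.15, numpy 2.4.6, pandas 2.3.3, scipy 1.17.1 and matplotlib 3.10.9.

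The members, the lists and the settings were chosen with earlier results of these data known. All 10 members are named. Of the pathway lists, genes called in a comparison are named, at most 4 per list, largest difference first, and for each member the 3 genes with the highest r. The alternatives were quantile normalization, normexp background correction with an offset of 50, no floor, values not well above background as missing, no filter on dim probes, the mean of all probes of a gene, array weights, no block, pairs on 1 slide, and arrays or time points left out. A further 11 were added after the data were seen.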

Additional observations from a re-analysis of the deposited data

Results flagged for a closer look

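In the HF5, HF20 and HF75 groups, of 5 or 6 arrays, each of the 8 members with enough signal and the early response, adipocyte, fibroblast, neutrophil and macrophage lists were searched for an array far from the others of its group, 39 sets of values in all. There were 5 such values, where chance gives about 1 in 20 of independent sets. The sets here share arrays and are not independent, so this rate is no yardstick for the count. On HF5 of week 9, a WS array, Tnf stood at -4.45 (the other 5 arrays at 0.04 to 2.11), Il1b at -4.67 (2.06 to 5.90) and the adipocyte list at 5.06 (-0.84 to 1.07). On HF5 of week 3, where Il1b was the highest of all arrays, the fibroblast list stood at 2.63 (4.21 to 4.91 on the others). On HF75 of week 15, Il1rn stood at 0.43 (-2.97 to -2.31 on the others). The causes were not tested.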

How the results depend on the processing

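Of 1255 differences of single members recomputed under the alternatives, 1167 kept their direction and their side of the threshold, 17 passed it (2 in HF75 minus HFC with normexp, 15 on the WS arrays with array weights or against weeks 6 and 15) and 71 changed direction. The lowest adjusted p among the 71 was 0.212. The cause was not tested. Labels alone pair the arrays, by time point. The deviations of paired arrays correlated with a median r of 0.37 for HFC and LFC (above 0.1 in 8 of 11 pairs), 0.42 for HF5 (6 of 6), 0.35 for HF20 (3 of 5) and 0.14 for HF75 (3 of 5). With no replicate block, the pairing left out, HF75 had 1 probe called in place of 326, and the other comparisons of diets 0 as before.

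The count of probes called in HF75 minus HFC was 659 with normexp, 196 with values not well above background as missing, 7587 with no filter on dim probes, 1322 with array weights, 0 with pairs scanned on 1 day, and 37 to 335 with each pair left out in turn, the 37 without week 3. In HFC minus LFC it was 16 with pairs on 1 slide, none of them a member. In late minus early it was 0 with quantile normalization, normexp, the 2 arrays of low rank correlation left out, or day 14 and week 0 in neither period, 2 with values not well above background as missing or without the WS arrays, 121 with array weights, 19 without the arrays that stand apart, and 0 to 4 with each array left out. On the WS arrays it was 17 with quantile normalization, 14551 with array weights, 2950 against weeks 6 and 15, and 0 to 56 with each diet left out, the 56 without HF20. Scan day or slide as a random block, added after the data were seen, left the counts of late minus early at 1 and of the WS arrays at 0, and took the 2950 to 0.

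Directions turned as follows. In HFC minus LFC, Il1a was 0.28 without the 2 arrays of low rank correlation. Il1rn was -0.42 with values not well above background as missing, -0.09 with array weights, -0.94 with pairs on 1 slide and -0.23 to 0.92 with each pair left out. Without pairs that hold an array standing apart, Il1b was -0.08, Il6 -0.57, Ptgs2 -0.02 and Nfkbia -0.13. In HF5 minus HFC, Il1a was -1.0 and Tnfaip3 -0.02 with normexp, and Il1b -0.91 and Tnfaip3 -0.16 with array weights. Ptgs2 was 0.58 and Il1rn 0.24 with values not well above background as missing and without week 9, and 0.36 and 0.34 with pairs on 1 slide. With each pair left out, Il1a was -0.38 to 0.64, Il1b -0.64 to 0.68, Il6 -0.20 to 0.48, Ptgs2 -0.65 to 0.58, Il1rn -0.73 to 0.38 and Tnfaip3 -0.18 to 0.53.

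In HF20 minus HFC, Il6 was 0.10 and Ptgs2 0.41 without pairs that hold an array standing apart, and Il12b -1.28 to 0.06 with each pair left out. In HF75 minus HFC, Il12b was -0.43 with normexp, Il12b -0.47 and Tnfaip3 -0.09 with pairs scanned on 1 day, and Tnfaip3 -0.48 without week 9. With each pair left out, Il1a was -0.80 to 0.05, Ptgs2 -0.45 to 0.09, Il1rn -1.32 to 0.29 and Tnfaip3 -0.48 to 1.28. In late minus early, Tnf was -0.13 and Il1b -0.34 with array weights. Il1a was 0.12 with quantile normalization, 0.22 with values not well above background as missing (Il12b 0.16) and 0.77 without the arrays that stand apart, and without arrays of low rank correlation Il1b was 0.00 and Nfkbia -0.11. With each array left out, Tnf was -0.20 to 0.84, Il1b -0.16 to 0.96 and Tnfaip3 -0.13 to 0.77.

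In the HFC effect, late minus early, Il1b was -0.34 and Il6 -0.93 without pairs that hold an array standing apart. Il12b was -1.05 with values not well above background as missing and -0.13 with array weights. Nfkbia was 0.38 with quantile normalization, 0.17 without arrays of low rank correlation and 0.06 with array weights. With each pair left out, Il1a was -0.28 to 1.44 and Il12b -0.80 to 0.87. On the WS arrays, Il1a was 0.68 with values not well above background as missing. Signal over background limits Il12b and Nos2, and saturation limits Nfkbia.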
